A study of Homo sapiens with 8 samples.

Results

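Genes for histone methyltransferases (writers) and histone demethylases (erasers) were examined for NF-Y peaks in 2 rhabdomyosarcoma cell lines. They were chosen by symbol, as the protein-coding genes on autosomes named KMT, KDM, SETD, SUV39H, EHMT, EZH, NSD, DOT1L, PRMT or CARM1. This gave 52 of 19126 autosomal protein-coding genes, with 35 writers (26 for lysine and 9 for arginine) and 17 erasers. A further 4 genes with such symbols lie on the sex chromosomes and were not used. A gene counted as bound in a peak list when any peak of that list touched the stretch from 1000 bp before to 1000 bp after an annotated gene end in hg38.

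Binding was measured by CUT&RUN, in which an antibody directs a nuclease to a chromatin protein and the released DNA is sequenced. RH30 cells with an inducible cytosine base editing system received the guide sgCCAAT2a or sgCCAAT2b, directed at a CCAAT motif in the endogenous PAX3 promoter, or the control guide sgCtrl1 or sgCtrl2, were selected with blasticidin and were collected 8 days after rapamycin was added. Each of these 4 guides gave 1 NFYB library, and the libraries of the CCAAT guides are called edited here, although editing itself was not analysed. Uninfected RH4 cells gave 1 NFYB and 1 NFYC library. Both lines are established and are labelled as carrying the PAX3-FOXO1 fusion. The libraries titled RH30 bear RH4 as source name and cell line, and they are called RH30 after their titles and the design text. The labels do not say whether the engineered RH30 cells were 1 clone. Peak positions do not measure expression, so the cell type was not checked against markers. No guide or antibody has a replicate. The groups were therefore set side by side by their values, and intervals are exact Clopper-Pearson 95% intervals that cover the counting of genes only.

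The transcription factor NF-Y, made of the subunits NFYA, NFYB and NFYC, binds CCAAT boxes, mostly close upstream of transcription start sites. NFYB and NFYC join through histone-like folds, and NFYA reads the motif. Histone methyltransferases add methyl groups to lysine or arginine residues of histone tails, and demethylases remove them from lysines. Marks such as H3K4 methylation accompany active promoters, while H3K27 and H3K9 methylation accompany silenced chromatin. In muscle precursors EZH2 is known for holding differentiation genes silent.

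The lists differed in length, which bears on how many genes can be called in each. The edited lists held 2451 (sgCCAAT2a) and 2558 (sgCCAAT2b) peaks from 21.2 M and 28.2 M tags, against 4025 (sgCtrl1) and 6687 (sgCtrl2) peaks from 13.9 M and 10.5 M tags in the controls. In RH4 there were 3243 peaks for NFYB and 3760 for NFYC, and the depth is unknown. Peaks took up 1.22% and 1.46% of tags in the edited libraries and 2.40% and 3.10% in the controls. The deeper RH30 libraries had the shorter lists, and the part of tag share or depth in any difference between lists was not tested.

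In every list the members were bound at a higher share than all genes, and most members were bound in none. In RH4, 15 of 52 members (28.8%, 17.1 to 43.1%) were bound for NFYB and 15 for NFYC, where 15.3% and 15.6% of all autosomal protein-coding genes were. In RH30, 9 members (17.3%, 8.23 to 30.3%) were bound with sgCCAAT2a and 8 (15.4%, 6.88 to 28.1%) with sgCCAAT2b, beside 9.04% and 9.44% of all genes. The controls had 13 members bound with sgCtrl1 (25.0%, 14 to 38.9%) and 21 with sgCtrl2 (40.4%, 27 to 54.9%), beside 12.8% and 17.1% of all genes. The members' intervals lay above the share of all genes in RH4 NFYB, RH4 NFYC, sgCtrl1 and sgCtrl2, and included it in both edited libraries. In sgCtrl1 the margin was small, with a lower bound of 14% beside 12.8%. Members were chosen with earlier results known, so this is a description and no test. It does not show a difference between edited and control lists. At least 1 list had a peak at 23 members (44.2%), against 22.1% of all genes, and 29 members (55.8%) had none, against 77.9%.

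**Figure D1:**
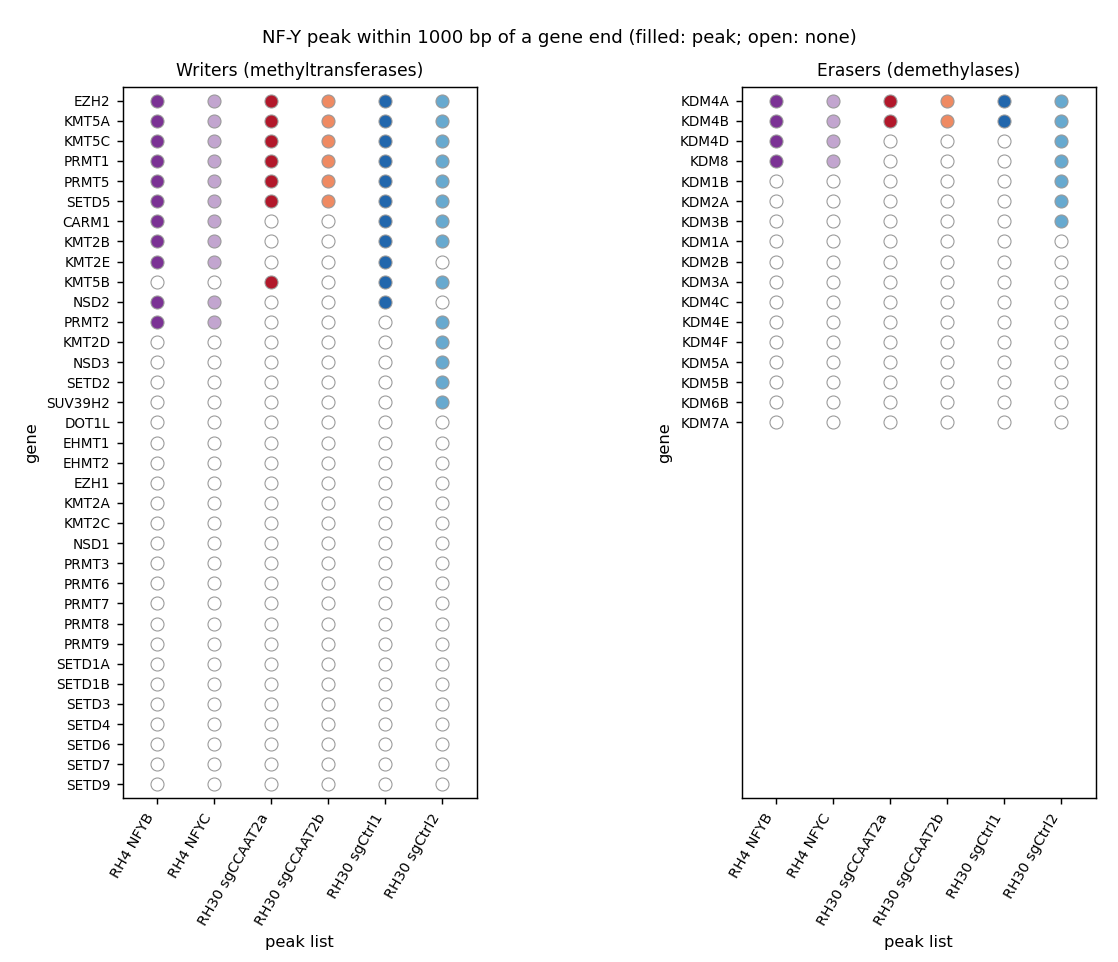
NF-Y peaks within 1000 bp of a gene end for 35 writers (left) and 17 erasers (right), 1 row a gene and 1 column a peak list, filled where a peak was called. Rows of 6 writers and 2 erasers are filled in all 6 columns, and 4 writers and 3 erasers are filled in the sgCtrl2 column alone.

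Writers and erasers did not separate beyond the width of their intervals. Of the writers 11 of 35 were bound in RH4 for NFYB (31.4%, 16.9 to 49.3%), and of the erasers 4 of 17 (23.5%, 6.81 to 49.9%). For NFYC the counts were the same. With sgCCAAT2a 7 writers (20%) and 2 erasers (11.8%) were bound, and with sgCCAAT2b 6 writers (17.1%) and 2 erasers (11.8%). With sgCtrl1 there were 11 writers (31.4%, 16.9 to 49.3%) and 2 erasers (11.8%, 1.46 to 36.4%), and with sgCtrl2 14 writers (40.0%) and 7 erasers (41.2%). The share of writers was the higher one in 5 of the 6 lists and the share of erasers in sgCtrl2. This order was not stable: at any annotated start erasers were the higher in RH4 too, with 7 of 16 (43.8%) against 12 of 32 writers (37.5%) for NFYB and for NFYC, and in the upper part of the lists (the wider RH4 peaks and the earlier RH30 entries) writers were the higher in sgCtrl2, with 12 of 35 against 4 of 17 erasers. A further setting left out 7 members of unclear histone activity, SETD3, SETD4, SETD6, SETD9, PRMT8, PRMT9 and KDM8. Writers were then the higher in all 6 lists, at 37.9% against 18.8% in RH4 NFYB and 48.3% against 37.5% in sgCtrl2. Each writer left out was bound in no list, and the eraser KDM8 was bound in 3. Leaving them out thus raised the writers' share in every list and lowered that of erasers in the lists with KDM8. The SET-domain proteins KMT2E and SETD5, bound in 3 and 6 lists, were kept. With so few erasers the interval for sgCtrl1, the widest gap in the main counts, still overlapped that of the writers. Among the writers, arginine methyltransferases were bound in 4 of 9 cases in RH4 NFYB (44.4%, 13.7 to 78.8%) and lysine methyltransferases in 7 of 26 (26.9%, 11.6 to 47.8%). In RH30 the classes were closer, at 22.2% against 19.2% with sgCCAAT2a, 22.2% against 15.4% with sgCCAAT2b, 33.3% against 30.8% with sgCtrl1 and 44.4% against 38.5% with sgCtrl2.

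**Figure D2:**
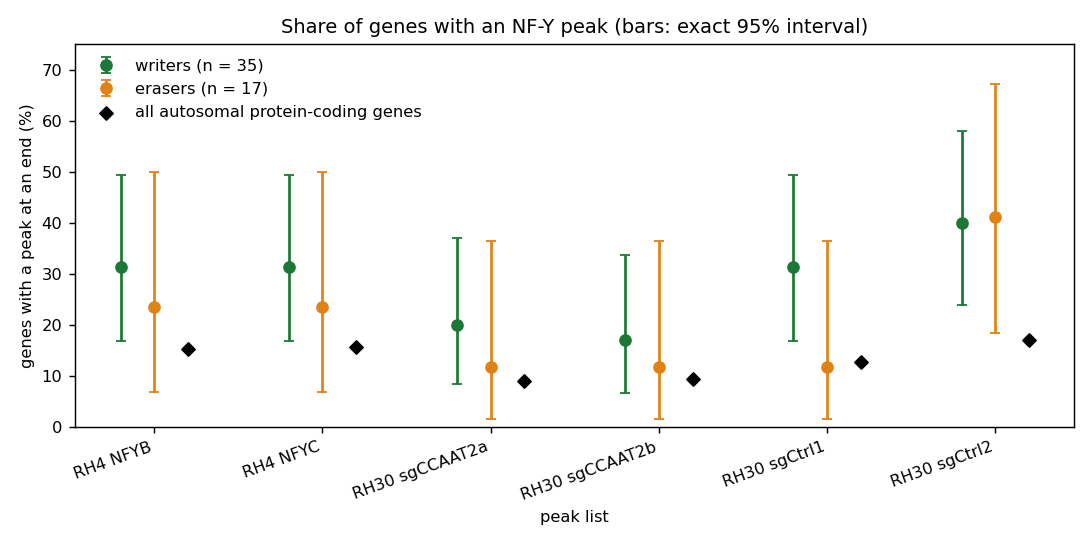
Percentage bound in each list, for writers, erasers and all autosomal protein-coding genes, with exact 95% intervals as bars for writers and erasers. Writers lie above all genes in each list, while erasers at 11.8% lie below all genes at 12.8% in sgCtrl1, and the bars of writers and erasers overlap in each list.

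A core of 8 members was bound in all 6 lists (15.4%, 6.88 to 28.1%, against 7.13% of all genes). It comprised the writers EZH2, KMT5A, KMT5C, PRMT1, PRMT5 and SETD5 and the erasers KDM4A and KDM4B. They share a feature that the choice did not use: their annotated promoters hold a CCAAT box. The promoter table of RefSeq (GRCh38.p14) gives 250 bases before and 50 after each start site and matched 48 of 52 members; NSD3, SETD1B, DOT1L and KDM4E have no entry. For genes with several starts the entry nearest to the 5' end of the gene was taken. CCAAT on either strand (CCAAT or ATTGG, each match counted, overlaps included) occurred in 8 of 8 core promoters (63.1 to 100%), in 3 of 14 promoters of members bound in 1 to 5 lists (21.4%, 4.66 to 50.8%) and in 5 of 26 of members bound in none (19.2%, 6.55 to 39.4%). Of these last 5, KDM3A and SETD3 had a peak in all 6 lists within 1000 bp of the start searched, and without genes of that kind the count was 3 of 24 (12.5%, against 27.1% of 11429 for all genes). Among all autosomal protein-coding genes the shares in the first 3 classes were 85.2% of 1189, 53.3% of 2366 and 27.4% of 11546, and 36.1% of 15101 promoters overall. More than 1 match was found in 7 of the 8 core promoters, against 59.4% of the promoters of all genes bound in all 6 lists. A match is a description of the letters, and binding to it was not measured. Among members bound in 1 to 5 lists, KDM3B, KDM8, KMT2D, KMT2E and KMT5B had no peak over the bases searched. At KMT5C, PRMT1, SETD5 and KDM4B the peaks of some RH30 lists overlapped no match. These peaks lay wholly or partly more than 250 bases upstream of the start, where no bases were searched. Whether CCAAT lies under those parts was not examined.

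**Figure D3:**
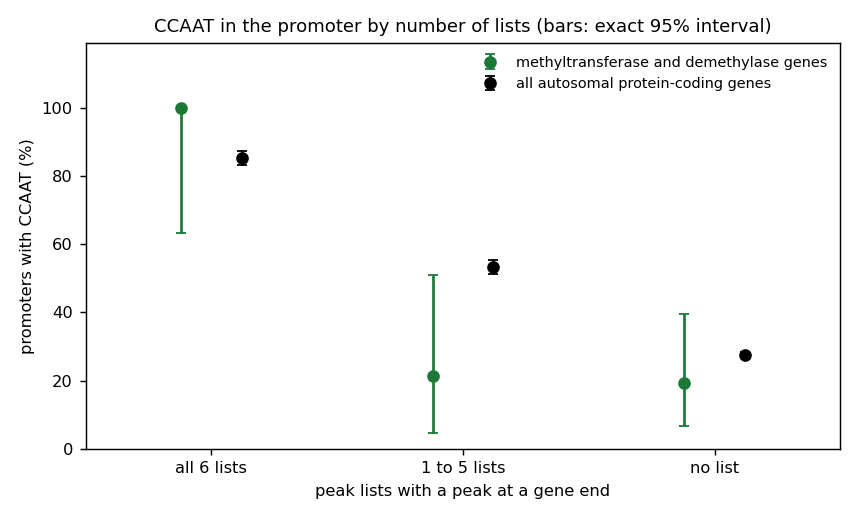
Percentage of promoters that hold CCAAT on either strand, for genes bound in all 6 lists, in 1 to 5 lists and in none, with exact 95% intervals as bars. The 8 core members stand at 100% beside 85.2% of all such genes, and members bound in 1 to 5 lists stand at 21.4% beside 53.3%. Some members bound in 1 to 5 lists had no peak over the bases searched.

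EZH2, the catalytic subunit of Polycomb repressive complex 2 that methylates H3K27, carried a peak at its start in each library, while its paralogue EZH1 had none. EZH2 (gene ID 2146) spans chr7:148807383-148884291 on the minus strand. Peak centres lay at -105 bp (NFYB) and -88 bp (NFYC) from its 5' end in RH4, at -76 bp (sgCCAAT2a) and -78 bp (sgCCAAT2b) in the edited libraries, and at -53 bp (sgCtrl1) and -79 bp (sgCtrl2) in the controls, negative values being upstream. Boxes on either strand began at -94, -66, -47 and -13, with the start site at 0, and each of the 6 centres lay within 4 to 14 bp of the middle of the nearest box. As these boxes stand close together, any centre among them lies near a box. The distances therefore do not show that the centres follow a box. In the upper part of the lists EZH2 no longer counted in all 6. EZH1 (gene ID 2145), at chr17:42700275-42745040, had its nearest peak centre 22020 bp from an end, in sgCtrl2, and no match in its promoter entry. The 250 bases upstream of both starts are shown to set the paralogues side by side, at chr7:148884292-148884541 and chr17:42745041-42745290, both on the minus strand, with CCAAT boxes in capitals.
EZH2: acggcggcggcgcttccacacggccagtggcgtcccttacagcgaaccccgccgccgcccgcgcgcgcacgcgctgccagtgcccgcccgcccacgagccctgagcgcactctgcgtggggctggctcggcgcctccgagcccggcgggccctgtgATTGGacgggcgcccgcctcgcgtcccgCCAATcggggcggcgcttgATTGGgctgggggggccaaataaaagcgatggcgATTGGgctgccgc
EZH1: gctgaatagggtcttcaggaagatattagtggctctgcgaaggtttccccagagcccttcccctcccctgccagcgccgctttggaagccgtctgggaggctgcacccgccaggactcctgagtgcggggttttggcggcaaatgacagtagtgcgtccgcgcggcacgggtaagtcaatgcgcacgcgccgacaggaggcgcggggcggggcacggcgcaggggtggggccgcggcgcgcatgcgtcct

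All 3 writers of H4K20 methylation were bound in at least 1 list (29.2 to 100%), against 22.1% of all genes. With only 3 genes this describes single members and is no statement about the class. KMT5A, which sets the first methyl group on H4K20, and KMT5C, which adds further ones, were in the core. KMT5A (gene ID 387893, chr12:123384132-123409353) had peak centres at -131 bp (NFYB) and -122 bp (NFYC) in RH4, at -56 and -82 bp in the edited libraries and at -98 and -82 bp in the controls, in the order sgCCAAT2a, sgCCAAT2b, sgCtrl1 and sgCtrl2. Its promoter holds 1 CCAAT box, at -42. KMT5C (gene ID 84787, chr19:55339876-55348121) was bound further upstream, at -255 bp (NFYB) and -295 bp (NFYC) in RH4. In RH30 its centres fell at 2 places: -379 bp with sgCCAAT2a and -207 bp with sgCCAAT2b among the edited libraries, and -379 bp with sgCtrl1 and -206 bp with sgCtrl2 among the controls. The wide RH4 peaks of KMT5C covered both places, and the split ran across edited and control guides. The CCAAT boxes of KMT5C, at -117 and -64, lay outside the peaks of sgCCAAT2a, sgCCAAT2b and sgCtrl1. KMT5B, the paralogue of KMT5C, had no RH4 peak and had a peak inside the gene at 805 bp with sgCCAAT2a, against 813 bp with sgCtrl1 and 800 bp with sgCtrl2. It was not bound with sgCCAAT2b.

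Of the arginine methyltransferases, PRMT1 and PRMT5, the main enzymes of asymmetric and symmetric arginine dimethylation, were bound throughout. PRMT5 (gene ID 10419, chr14:22920529-22929376, minus strand) had its centres at -83 bp (NFYB) and -125 bp (NFYC) in RH4, -129 and -130 bp with sgCCAAT2a and sgCCAAT2b, and -129 and -130 bp with sgCtrl1 and sgCtrl2. The 4 RH30 centres lay within 1 bp of each other, beside a CCAAT box on the opposite strand that begins at -143. RH4 NFYB also had a peak near the 3' end of PRMT5, centred at -161 bp from the 5' end of its neighbour RBM23. PRMT1 (gene ID 3276, chr19:49676153-49688447) had its centres inside the outermost gene end, from 759 to 794 bp. The start in the promoter table lies 1118 bp inside that end, so the peaks are upstream of this start, and the 2 CCAAT boxes at -156 and -115 from it lay under the RH4 peaks but outside the RH30 peaks. With a window of 500 bp PRMT1 was not bound in all 6 lists. CARM1, the coactivator-associated arginine methyltransferase, was bound in both RH4 lists and both controls and in neither edited list. PRMT2 was bound in both RH4 lists and with sgCtrl2. PRMT3, PRMT6, PRMT7, PRMT8 and PRMT9 were bound in none.
The upstream bases of KMT5A and PRMT5 are shown as core promoters with 1 and 3 boxes, at chr12:123383882-123384131 (plus strand) and chr14:22929377-22929626 (minus strand), with CCAAT or ATTGG in capitals.
KMT5A: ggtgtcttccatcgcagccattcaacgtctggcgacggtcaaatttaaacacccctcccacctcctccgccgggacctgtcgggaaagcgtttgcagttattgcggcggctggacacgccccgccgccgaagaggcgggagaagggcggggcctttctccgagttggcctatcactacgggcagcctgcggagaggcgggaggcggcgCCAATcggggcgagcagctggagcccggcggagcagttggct
PRMT5: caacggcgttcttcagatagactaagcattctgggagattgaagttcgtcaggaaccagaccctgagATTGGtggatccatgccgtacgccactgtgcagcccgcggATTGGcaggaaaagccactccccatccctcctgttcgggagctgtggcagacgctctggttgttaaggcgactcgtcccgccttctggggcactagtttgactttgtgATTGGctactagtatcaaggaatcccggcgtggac

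SETD5, a SET-domain protein, completed the core writers with more than 1 peak in some lists. SETD5 (gene ID 55209, chr3:9397615-9478154) had 1 wide NFYB peak in RH4, at 9396705 to 9397635, where NFYC was called as 2 peaks with centres at -623 and -111 bp. The sgCCAAT2a list also had 2 peaks, at -538 and -118 bp, while sgCCAAT2b had 1 at -517 bp, sgCtrl1 1 at -531 bp and sgCtrl2 1 at -580 bp. The 3 CCAAT boxes of its promoter, at -116, -100 and -70, lay under the nearer NFYC and sgCCAAT2a peaks and the RH4 NFYB peak, and outside the peaks of sgCCAAT2b, sgCtrl1 and sgCtrl2.

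Among erasers the core was KDM4A and KDM4B, demethylases of the JmjC class that act on methylated H3K9 and H3K36. KDM4A (gene ID 9682, chr1:43650149-43705518) had wide peaks over its start in RH4, 846 bp for NFYB and 632 bp for NFYC. Its RH30 centres lay at -137 bp (sgCCAAT2a) and -116 bp (sgCCAAT2b), against -137 bp (sgCtrl1) and -113 bp (sgCtrl2). KDM4B (gene ID 23030, chr19:4969113-5153598) had centres at -212 bp (NFYB) and -229 bp (NFYC) in RH4, at -283 and -261 bp with sgCCAAT2a and sgCCAAT2b, and at -285 and -263 bp with sgCtrl1 and sgCtrl2. In both genes each edited centre was within 3 bp of 1 of the control centres. The sgCCAAT2a peak of KDM4B ended at -207, upstream of all CCAAT boxes found in the bases searched, the first beginning at -205. Their paralogue KDM4D was bound in both RH4 lists and with sgCtrl2 only, at a start that faces the start of CWC15, and KDM4C, KDM4E and KDM4F were bound in none. The KDM4A and KDM4B upstream bases are shown because these were the erasers bound in all lists, with 3 and 4 boxes, at chr1:43649899-43650148 and chr19:4968863-4969112, both on the plus strand.
KDM4A: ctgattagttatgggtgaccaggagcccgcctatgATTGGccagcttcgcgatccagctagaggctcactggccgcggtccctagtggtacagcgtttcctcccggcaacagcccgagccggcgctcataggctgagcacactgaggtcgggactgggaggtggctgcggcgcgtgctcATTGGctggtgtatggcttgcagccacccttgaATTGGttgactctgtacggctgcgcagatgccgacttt
KDM4B: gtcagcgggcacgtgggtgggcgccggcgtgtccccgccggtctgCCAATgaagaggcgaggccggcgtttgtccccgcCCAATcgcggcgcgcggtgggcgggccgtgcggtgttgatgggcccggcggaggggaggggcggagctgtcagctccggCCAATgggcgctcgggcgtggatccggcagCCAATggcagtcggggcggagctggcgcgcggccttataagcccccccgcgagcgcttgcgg

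**Figure D4:**
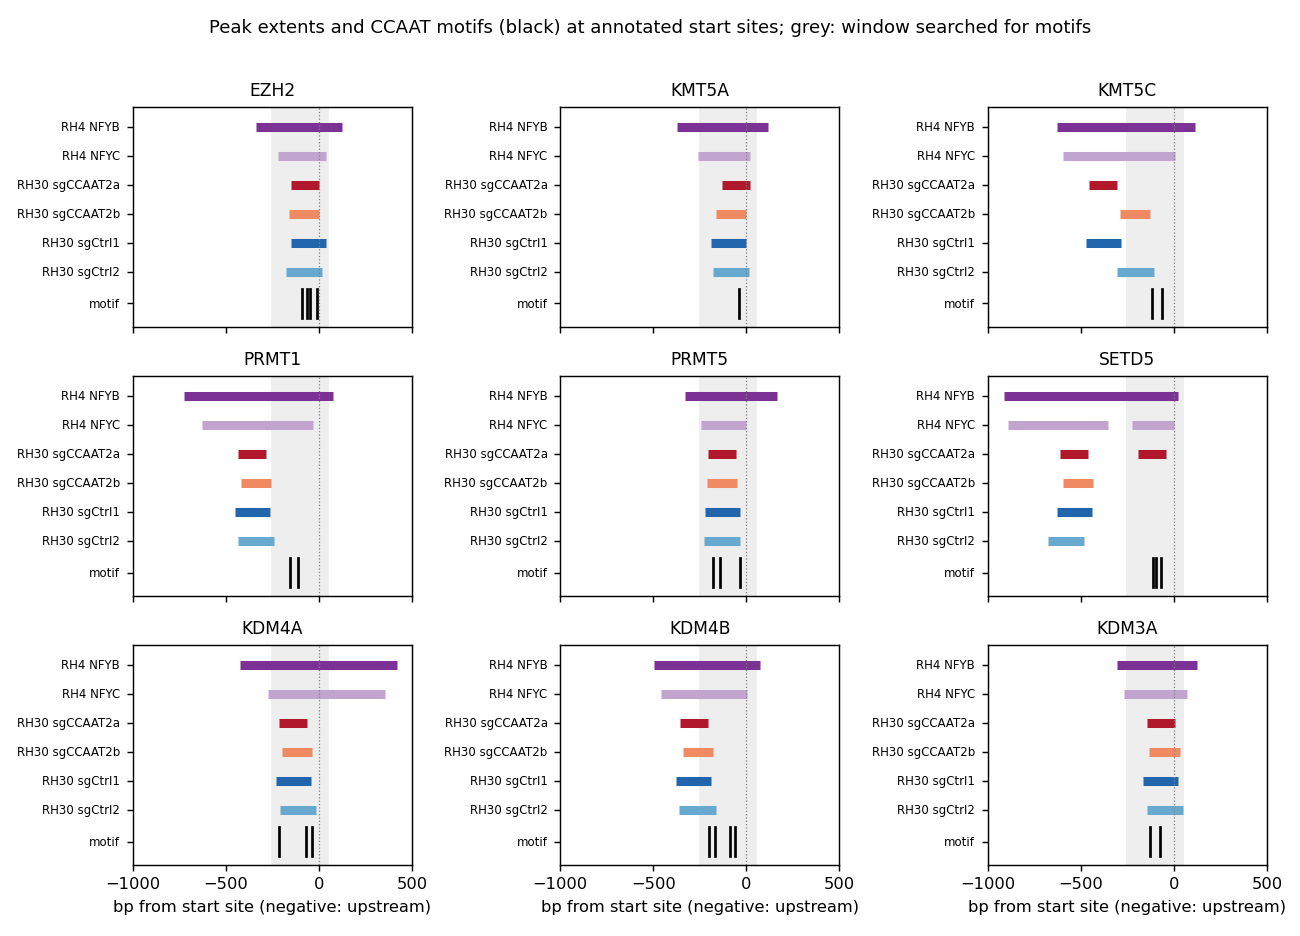
Extents of NF-Y peaks in the 6 lists (coloured bars) and CCAAT boxes (black ticks) from 1000 bp upstream to 500 bp downstream of an annotated start site, for the 8 core members and KDM3A; grey marks the bases searched for motifs. Bars overlie at least 1 tick in all 6 lists at EZH2, KMT5A, PRMT5, KDM4A and KDM3A, and lie upstream of them in the RH30 lists at PRMT1.

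Windows around the outermost gene ends missed some erasers that have a start further inside, a point chosen after the values were seen. KDM3A, an H3K9 demethylase, was not bound at its outer ends, but the start in the promoter table, 4327 bp inside the gene, had a peak in each of the 6 lists. Centres lay at -90 bp (NFYB) and -98 bp (NFYC) in RH4, at -69 and -50 bp with sgCCAAT2a and sgCCAAT2b, and at -71 and -46 bp with sgCtrl1 and sgCtrl2, and CCAAT boxes began at -128 and -75. SETD3, known as an actin histidine methyltransferase, likewise had a peak in all 6 lists from -373 to -287 bp of a start 5599 bp inside the gene. KDM2B, a CpG-binding demethylase, had peaks in both RH4 lists and sgCtrl2 at an inner start 114901 bp from its 5' end. KDM6B, an H3K27 demethylase, had a peak in all 6 lists just outside the window, with centres between 1363 and 1390 bp inside the gene. Counted at any annotated start, 10 of the 48 members with an entry were bound in all 6 lists, beside 8.13% of 15101 genes. The upstream bases of the inner KDM3A start, chr2:86441121-86441370 on the plus strand, show its boxes in capitals.
KDM3A: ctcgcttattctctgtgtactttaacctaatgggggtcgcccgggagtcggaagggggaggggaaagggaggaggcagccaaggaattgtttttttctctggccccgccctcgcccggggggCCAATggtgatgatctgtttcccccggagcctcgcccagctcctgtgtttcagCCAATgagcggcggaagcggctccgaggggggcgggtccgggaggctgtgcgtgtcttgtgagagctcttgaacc

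The threshold also decided KMT2E. KMT2E, a SET-domain protein of the KMT2 family, had centres at -1153 bp (NFYB) and -1106 bp (NFYC) in RH4 and -1086 bp with sgCtrl1, whose peaks reach into the window, whereas the sgCtrl2 peak at -1155 bp ended outside it. The nearest edited peak centre was 2053865 bp from KMT2E.

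No H3K4 writer (0 of 7, 0 to 41.0%) and no H3K36 writer (0 of 4, 0 to 60.2%) was bound in an edited list. Of all genes, 9.04% (sgCCAAT2a) and 9.44% (sgCCAAT2b) were, and both intervals include these shares. SETD5, which was bound in both edited lists, was counted in neither class. KMT2B, an H3K4 methyltransferase, was bound upstream of its start at -346 bp (NFYB) and -363 bp (NFYC) in RH4 and at -428 bp (sgCtrl1) and -332 bp (sgCtrl2) in the controls. The edited lists had no peak there, and their nearest one lay beyond its 3' end, 1811 bp (sgCCAAT2a) and 1803 bp (sgCCAAT2b) from it, outside the window. KMT2D was bound with sgCtrl2 only, 275 bp past its 3' end and 73 bp inside the neighbouring PRKAG1, and KMT2A, KMT2C, SETD1A, SETD1B and SETD7 were bound in none. NSD2, which dimethylates H3K36, was bound in both RH4 lists and with sgCtrl1, where the centre at -96 bp fell within 2 bp of the middle of its CCAAT box. It was not bound with sgCCAAT2a, sgCCAAT2b or sgCtrl2. The box begins at -96 and lay under the peaks of RH4 NFYC and sgCtrl1. The RH4 NFYB peak ended at -100, short of the box, with its centre 267 bp away. The upstream bases of NSD2, chr4:1871143-1871392 on the plus strand, are shown as a promoter with a box at a gene bound in 3 of 6 lists.
NSD2: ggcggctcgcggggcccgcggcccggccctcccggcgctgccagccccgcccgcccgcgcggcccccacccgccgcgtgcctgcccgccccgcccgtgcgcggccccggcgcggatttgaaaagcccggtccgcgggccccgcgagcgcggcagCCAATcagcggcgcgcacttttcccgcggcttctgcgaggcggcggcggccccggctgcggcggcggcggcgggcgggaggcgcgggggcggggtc

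Peaks found with sgCtrl2 alone lay at 7 members (13.5%, against 3.67% of all genes). These were SETD2, the enzyme of H3K36 trimethylation, SUV39H2, an enzyme of H3K9 trimethylation, NSD3, KMT2D, KDM1B, a flavin-dependent demethylase, KDM2A and KDM3B. The NSD3 peak, chr8:38269140-38269336, was also within reach of PLPP5, and the KDM1B peak lay at -88 bp from KDM1B and at -165 bp from TPMT. Of the 5 of these genes with a peak near their start and a promoter entry, only KDM3B held a CCAAT box there, and its peak, 847 bp inside the gene, did not overlap it. The sgCtrl2 list is the longest of the 6, and these peaks stood throughout its file, from 31.0% of the way down at KDM2A, through 42.2% at KMT2D, 43.6% at SUV39H2, 50.3% at NSD3 and 54.0% at KDM1B, to 82.4% at KDM3B and 92.9% at SETD2. Whether the order of entries is a ranking is not stated in the headers.

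In RH4 the NFYB and NFYC lists called the same 15 members (28.8%, against 13.7% of all genes bound in both), where 89.7% of all genes bound for NFYB were also bound for NFYC. Each of the 15 was bound in at least 1 RH30 control, compared with 86.4% of all genes bound in both RH4 lists. All 4 RH30 lists held 8 of them, beside 51.9% of all genes bound in both RH4 lists. Of the other 7, CARM1 and KMT2B were bound in both controls, NSD2 and KMT2E with sgCtrl1 and not sgCtrl2, and KDM4D, KDM8 and PRMT2 with sgCtrl2 and not sgCtrl1. None of these 7 was bound in an edited list. The matching share of all genes was not counted, so this describes the genes named and is no result about members. KDM8, a JmjC protein, had its peaks inside the gene, at 295 bp (NFYB), 379 bp (NFYC) and 399 bp (sgCtrl2).

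Between edited and control RH30 libraries the shares of members kept were close to those of all genes. Both edited lists held 8 members (15.4%, against 8.25% of all genes) and both control lists 11 (21.2%, against 11.5%). Of these 11, 8 were bound in both edited libraries (72.7%, against 66.0% of 2196 genes) and 2, CARM1 and KMT2B, in neither (18.2%, against 21.7%). KMT5B was bound with sgCCAAT2a and not sgCCAAT2b. By class, 6 of 9 writers and 2 of 2 erasers bound in both controls were bound in both edited libraries. Of the 9 members bound in an edited library, 0 were bound in neither control, beside 2.86% of 1956 such genes. CARM1 lay at -416 bp in sgCtrl1 and -376 bp in sgCtrl2, and its nearest edited peak was 153768 bp away. Neither CARM1 nor KMT2B holds a CCAAT box in its promoter entry, but their control peaks lay wholly or mostly upstream of that entry. Those of CARM1 ran from -510 to -322 (sgCtrl1) and -474 to -278 (sgCtrl2). Those of KMT2B ran from -522 to -334 (sgCtrl1) and -430 to -234 (sgCtrl2). Most bases under these peaks were therefore not searched. With windows shared with a neighbouring gene left out, neither CARM1 nor KMT2B was bound in any list. A window counted as shared where it overlapped the window of another gene, wherever the peak lay. No other gene was within reach of the CARM1 peaks themselves, whereas ZBTB32 was within reach of those of KMT2B.

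The authors' deposited tables of peaks higher in sgCtrl2 listed several core members although their peaks were still called in the edited libraries. Their thresholds, per the file headers, were 2.5-fold and p 0.001, each compares 1 library with 1 other, and all share sgCtrl2. Of the 21 sgCtrl2 peaks at members, the authors' deposited table over sgCCAAT2a listed 15 (71.4%, against 57.0% of 2811 sgCtrl2 peaks at gene ends), that over sgCCAAT2b 12 (57.1%, against 51.2%) and that over sgCtrl1 3 (14.3%, against 11.7%). A set of 8 peaks was in the authors' deposited tables for sgCCAAT2a and for sgCCAAT2b but not in the table for sgCtrl1 (38.1%, against 34.4%), those at CARM1, EZH2, KDM1B, KDM8, KMT2B, KMT2D, PRMT2 and SETD5. Peaks at KMT5A, KDM4B, KDM4D and KDM3B were in the authors' deposited table over sgCCAAT2a alone, and that at SETD2 in the one over sgCCAAT2b alone. The peaks at KDM4A, KMT5B, KMT5C, PRMT1 and PRMT5 were in none of the authors' deposited tables, and those at SUV39H2, KDM2A and NSD3 were in all 3.

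Core members also differed in their place in the RH30 files. KDM4A, KDM4B, KMT5C and PRMT1 stood within the first 5% of entries in all 4 lists. For instance KMT5C was at place 80 of 2451 with sgCCAAT2a and 63 of 2558 with sgCCAAT2b, and at place 28 of 4025 with sgCtrl1 and 18 of 6687 with sgCtrl2. EZH2 stood in the middle of the edited files, at place 1298 of 2451 (sgCCAAT2a) and 1342 of 2558 (sgCCAAT2b), and earlier in the controls, at 1090 of 4025 (sgCtrl1) and 779 of 6687 (sgCtrl2). As the lists differ in length, these places do not show a change between libraries.

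The share of 5' peaks with a centre just upstream of the gene was lower for members than for other genes in each list, with no test. Between 4 of 15 (RH4 NFYB) and 5 of 10 (sgCCAAT2a) member peaks had their centre within 200 bp upstream, where 57.9% and 68.0% of such peaks at other genes did. In the other lists the counts were 7 of 16 for RH4 NFYC, 4 of 8 for sgCCAAT2b, 5 of 13 for sgCtrl1 and 9 of 19 for sgCtrl2, against 62.3%, 69.0%, 64.1% and 58.0%. Medians over members ran from -137 to -94 bp.

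Partner genes and other chromatin enzymes were taken from lists chosen with earlier results known, to be read beside the shares of all genes above (15.3% and 15.6% in RH4, 9.04% and 9.44% edited, 12.8% and 17.1% in the controls, 7.13% in all 6 lists). Of 12 COMPASS partners, which work with KMT2 and SETD1 enzymes, 2 were bound in each RH4 list (16.7%, 2.09 to 48.4%), 0 in each edited list (0 to 26.5%) and 1 in each control (8.33%). PAGR1 was bound in 4 lists and MEN1 in 2. Of 9 partners of Polycomb repressive complex 2, RBBP4, a histone-binding subunit, was bound in all 6 lists and SUZ12, a core subunit, in 5, while EPOP was bound in 2 and the other 6 in none. Among 19 methyl enzymes outside the symbols used, JMJD6 was bound in all 6 lists, SETDB2 in 3 and SMYD4 in 2, and 11 were bound in none. Of 26 acetyltransferases and deacetylases 4 were bound in all 6 lists (15.4%, 4.36 to 34.9%), the deacetylases HDAC1, HDAC4 and SIRT2 and the acetyltransferase KAT7. The methyltransferase and demethylase genes had the same share, 15.4%, in all 6 lists.

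The remaining members bound in no list were DOT1L, the H3K79 methyltransferase, EHMT1 and EHMT2, which methylate H3K9, NSD1, an H3K36 methyltransferase, the SET-domain proteins SETD4, SETD6 and SETD9, the H3K4 demethylases KDM5A and KDM5B, KDM7A and KDM1A. For the 29 unbound members the median distance from an end to the nearest peak centre ran from 23263 bp in sgCtrl2 to 195590 bp in sgCCAAT2a. KDM1A, the flavin-dependent demethylase known as LSD1, had its nearest peak 82823 bp away, in sgCtrl2.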

How the data were processed

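CUT&RUN peak lists from 6 libraries with NFYB or NFYC antibody entered the analysis, and 2 IgG libraries and a list shared by both RH4 antibodies did not. Values are peak positions in bp on hg38, as deposited by the authors. Per the file headers, HOMER findPeaks made the RH30 lists, 1 for each library, requiring 2-fold more tags than an input (the same one for all 4) and 4-fold more than the surrounding 10000 bp. HOMER also made the differential tables, per the file headers. No header or label used here names the caller of the RH4 peaks. The submitters' processing notes also name Bowtie2, MACS2 and other tools, without versions.

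Genes and promoters came from RefSeq tables for GRCh38.p14. Members and lists were chosen with earlier results of these data known. Members bound in all lists, in controls and not in edited libraries, in sgCtrl2 alone or around the threshold were described by name. KDM3A, SETD3, KDM2B and KDM6B were singled out, and sequences selected, after their values were seen. Overlap code (Python 3.11.15, scipy 1.17.1) gave the same genes as bedtools 2.31.1 on 10 of 10 simulated lists. No p-value was computed, since each group has 1 library. Alternatives were windows of 500 and 3000 bp, the peak centre, the 5' end only, the upper part of each list by width (RH4) or file order (RH30), other gene definitions, unshared windows, a longer motif and, chosen after seeing the data, any annotated start.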

Additional observations from a re-analysis of the deposited data

How the results depend on the processing

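Counts of bound members in each list, of members bound in all 6 lists and of members kept in both edited libraries moved by at most 1.5 times under windows of 500 and 3000 bp, the peak centre, the 5' end only and the upper part of the lists (the wider entries in RH4 and the earlier ones in RH30, although neither width nor order is stated to rank peaks). Members bound in all 6 lists numbered 7 with a window of 500 bp, which lost PRMT1, and 10 with 3000 bp, which added KDM6B and KMT2B. KMT2B was added through edited peaks beyond its 3' end, 1811 bp (sgCCAAT2a) and 1803 bp (sgCCAAT2b) from it. Its peaks in RH4 and the controls lay upstream of its start. The upper part of the lists left 7, without EZH2, and it left 7 writers in sgCtrl1 in place of 11 and 4 erasers in sgCtrl2 in place of 7, a use for these counts that was chosen after seeing the data. With lysine writers only, 7 writers were bound in RH4 for NFYB and 7 for NFYC, in place of 11 each. At any annotated start 7 erasers were bound in RH4 for NFYB and 7 for NFYC, in place of 4 each, with KDM2B and KDM3A among those added. Promoters of unbound members with CCAATC or CCAATG numbered 2, in place of 5 with CCAAT. With windows shared with a neighbouring gene left out, CARM1, KDM1B, KDM4D, KMT2B, KMT2D and NSD3 were no longer bound in any list, and the 8 core members stayed. No paired analysis was possible because each group has 1 library and the labels give no replicate numbers. Lists of unequal length and unknown RH4 depth limit every comparison between libraries, and a gene without a peak was not called at this depth.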
